A study of Mus musculus with 7 samples.

Results

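Fibro-adipogenic progenitors (FAPs) are the resident mesenchymal progenitors of skeletal muscle. The markers described here were 9 genes taken as a list of names: Pdgfra, Ly6a, Cd34, Hic1, Pi16, Dpp4, Clec3b, Cxcl14 and Gsn. All 9 had a row among the 48795 genes of the table, and all 9 had enough reads to be among the 14002 genes tested. RNA-seq was performed on the TA, a mostly fast-twitch muscle at the front of the shin, taken from male mice at 6 months of age, with 3 WT and 4 mir-486 KO libraries. The KO mice lack the hairpin of miR-486, a muscle-enriched microRNA encoded in an intron of Ank1, after CRISPR editing. No animal received a treatment. The labels give the WT mice as C57BL/6 and the KO mice as FVB N/J, but FVB appears in the names of the WT data columns and a shared background is described in the study's methods, so strain and genotype cannot be told apart. The methods of the study speak of separate mice in each cohort, with more WT mice than there are WT libraries here, but the labels tie no library to an animal, and p-values reflect library-to-library spread.

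FAPs lie between the myofibres, outside the basal lamina, and do not form muscle themselves. After injury they multiply, release factors that help satellite cells, the muscle stem cells, and are then cleared, whereas in diseased muscle they persist and can turn into matrix-producing fibroblasts or fat cells. Single-cell studies of mouse muscle divide them into a Dpp4- and Pi16-expressing subset, placed close to the perimysium and to adventitia, and a Cxcl14-expressing subset between the fibres.

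Gene reads ranged from 23839577 to 28168275 per library. WT 3 stood apart from the other 6 libraries: the first principal component, which held 58.9% of the variance, separated it, and its mitochondrially encoded reads made up 22.4% of gene reads, against 13.0% to 13.3% in the other WT libraries and 15.8% to 17.9% in the KO. Values that it moved strongly are given with and without it. The row of the deleted microRNA held 0 or 1 reads in every library, so its loss was not detectable at this depth, and the host gene Ank1 had 7164 to 7746 reads in WT and 6335 to 7037 in KO. Muscle fibre markers were abundant, at a summed 118000 to 132800 CPM (reads scaled to the TMM-adjusted gene reads of each library) in WT and 104900 to 124600 in KO. In whole muscle, fewer cells of a type and less RNA per cell cannot be told apart.

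The defining receptor of FAPs, Pdgfra, and 6 of the other 8 markers did not pass the test between genotypes, whereas the transcriptional repressor gene Hic1 and the secreted lectin gene Clec3b were lower in KO muscle. Of the 9 markers, 2 were lower and 0 higher in KO at an adjusted p below 0.05 in edgeR's quasi-likelihood test with Benjamini-Hochberg adjustment over all 14002 genes. Across all genes tested, 2.81% passed, 1.85% lower and 0.964% higher in KO. With all 7 libraries no marker was higher in KO at an unadjusted p below 0.05 either, a level reached in either direction by 20.2% of all genes, and DESeq2 and limma voom, which called 6.52% and 16.8% of genes, also gave 0 markers higher and 2 lower. Hic1 was the 1 marker at least 2-fold lower, a call made for 1.16% of all genes. For 2 of the 9 markers all KO libraries lay on 1 side of all WT libraries in CPM, without overlap, against 22.4% of all genes. The median log2 fold change of the 9 was -0.11, beside -0.02 over all genes, with 7 of the 9 below 0 as against 52.3% of all genes.

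The starting regions of Hic1, the marker with the largest difference between genotypes, and of Pdgfra, the marker that defines the cells, are shown to give the sequence context of these 2 genes. These are RefSeq windows of GRCm38.p6, each from 250 bases before to 50 bases after an annotated transcript start, written 5′ to 3′ on the gene's strand. Capitals mark GC boxes, the motif GGGCGG or its reverse complement CCGCCC.
Hic1 window 1 (chr11:75170206-75170505, minus strand): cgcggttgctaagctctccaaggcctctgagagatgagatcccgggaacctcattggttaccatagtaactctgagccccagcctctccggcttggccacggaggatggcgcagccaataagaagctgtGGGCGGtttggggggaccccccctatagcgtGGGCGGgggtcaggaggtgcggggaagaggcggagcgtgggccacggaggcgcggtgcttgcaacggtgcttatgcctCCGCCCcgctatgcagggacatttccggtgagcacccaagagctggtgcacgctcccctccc
Hic1 window 2 (chr11:75168103-75168402, minus strand): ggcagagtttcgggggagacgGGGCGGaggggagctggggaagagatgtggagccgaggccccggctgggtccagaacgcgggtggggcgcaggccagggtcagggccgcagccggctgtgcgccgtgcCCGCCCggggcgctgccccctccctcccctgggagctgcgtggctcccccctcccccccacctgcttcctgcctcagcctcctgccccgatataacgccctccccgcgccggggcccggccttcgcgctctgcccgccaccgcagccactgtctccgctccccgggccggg
Pdgfra window (chr5:75152001-75152300, plus strand): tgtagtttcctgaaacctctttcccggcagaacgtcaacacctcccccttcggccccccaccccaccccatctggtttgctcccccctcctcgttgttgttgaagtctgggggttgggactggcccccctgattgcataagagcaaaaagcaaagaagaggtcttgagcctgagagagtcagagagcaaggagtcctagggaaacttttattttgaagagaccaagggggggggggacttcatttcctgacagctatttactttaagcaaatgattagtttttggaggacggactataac
The first Hic1 window held 3 GC boxes and 20 CpG dinucleotides at 64.7% GC, and the second held 2 GC boxes and 29 CpG at 77.3% GC. The Pdgfra window held 0 GC boxes and 5 CpG at 51% GC. Among 32851 windows of this length, 35.7% held a GC box on either strand, the median GC content was 52.7%, and 2.25% reached the GC content of the second Hic1 window. A high content of GC boxes was not limited to Hic1, since Cxcl14 and the first window of Gsn, neither of which passed the test, held 3 GC boxes each, at 62.7% and 63.7% GC with 22 and 20 CpG. Windows were present for 7 of the 9 markers, so Ly6a and Clec3b, which was also lower in KO, were not examined. These matches describe letters in the windows and no binding.

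Pdgfra encodes the receptor for platelet-derived growth factor whose signal drives FAP proliferation and matrix production, and it lies at chr5:75152292-75198215 (GRCm38). In the order WT 1 to WT 3 its CPM was 17.6, 14.8 and 10.4, and in the order KO 1 to KO 4, the order used throughout, it was 10.9, 16.7, 17.6 and 14.6. WT 3 and KO 1 were the low libraries of their groups, and the groups overlapped across almost their whole range. The log2 fold change, KO over WT, was 0.06 (SE 0.22, 95% interval -0.43 to 0.56, edgeR adjusted p = 0.885), and it was -0.11 without WT 3 (adjusted p = 0.709). Its sign also turned without KO 3 (-0.024) and with limma voom on all 7 libraries (-0.035), and none of these values passed the test.

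Ly6a encodes Sca-1, a surface protein anchored in the membrane by lipid, used with Pdgfra to sort FAPs and also present on mouse endothelium. Its CPM was 61.8, 40.7 and 105 in WT and 51.9, 39.3, 59.9 and 45.1 in KO. WT 3 was highest of all libraries, at 2.05 times the mean of the other 2 WT libraries, of which WT 1 lay just above the KO range and WT 2 within it. Between genotypes the log2 fold change was -0.49 (SE 0.29, 95% interval -1.17 to 0.18, edgeR adjusted p = 0.3801), and it was -0.06 without WT 3 (adjusted p = 0.868). In the same library the macrophage lysosomal gene Cd68 stood at 22.8 CPM, against 2.46 and 2.82 in the other WT libraries, and the fatty acid carrier Fabp4, made by capillary endothelium and fat cells, stood at 502 against 232 and 190 CPM. Not every gene of these cell types was high there. The leukocyte gene Ptprc stood at 1.28 CPM in WT 3, against 1.945 and 1.43 in WT 1 and WT 2. The endothelial gene Kdr stood at 61.15 CPM, against 84.45 and 69.04. The part of these cells in the Ly6a value was not tested. Ly6a belongs to a family of close gene copies and its alleles differ between inbred strains, so its counts are uncertain.

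Cd34 encodes a sialomucin of progenitors, found on FAPs, endothelial cells and satellite cells. Its CPM was 45.5, 49.8 and 63.5 in WT and 41.8, 38.2, 46.5 and 43.8 in KO. All but KO 3 of the KO libraries lay below the lowest WT library. The log2 fold change of -0.31 (SE 0.14, 95% interval -0.64 to 0.01) did not pass (edgeR adjusted p = 0.259), and was -0.16 without WT 3 (adjusted p = 0.300). An antisense gene, Gm16897, overlaps an exon of Cd34, but with 7 to 30 reads per library.

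Hic1 encodes a zinc-finger transcriptional repressor which, in mouse muscle, marks quiescent mesenchymal progenitors, pericytes and tendon progenitors as well as FAPs. The gene (ENSMUSG00000043099.4) lies at chr11:75164565-75169519 on the minus strand. Its raw counts were 91, 106 and 73 in WT and 35, 27, 33 and 47 in KO. Its CPM was 3.10, 3.98 and 3.00 in WT and 1.32, 1.07, 1.23 and 1.93 in KO. Every KO library lay below every WT library, and WT 3 sat with the other WT libraries. The mean fell from 3.36 ± 0.54 (SD, n = 3) to 1.39 ± 0.38 CPM (SD, n = 4), or 0.413 times the WT level. This gave a log2 fold change of -1.28 (SE 0.23, 95% interval -1.81 to -0.74, edgeR adjusted p = 0.0300). Without WT 3 it was -1.34 (adjusted p = 0.00515), where 6.55% of genes were lower. The adjusted p exceeded the threshold when any of the other 6 libraries was left out, at 0.0572 and 0.0846 when this was WT 1 or WT 2, and at 0.103, 0.101, 0.113 and 0.0602 when it was KO 1, KO 2, KO 3 or KO 4.

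**Figure D1:**
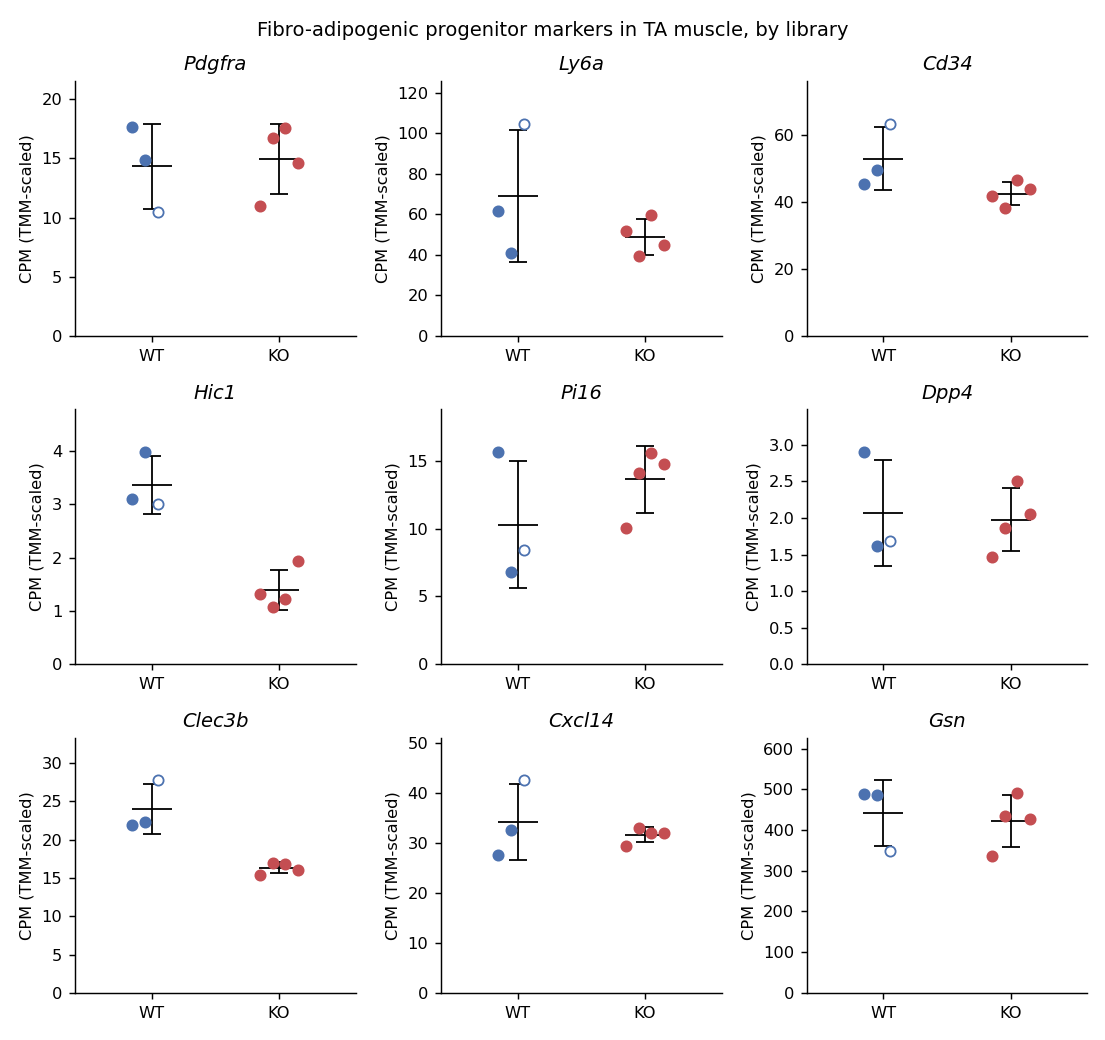
Each panel plots the TMM-scaled CPM of 1 marker (y axis, starting at 0) in the WT (blue) and KO (red) libraries, with the open circle for WT 3, a horizontal line for the group mean and bars for ± 1 SD (n = 3 and n = 4). Hic1 and Clec3b are the 2 panels in which the groups do not overlap.

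The genes that give the Dpp4 and Pi16 subset its name did not pass the test. Pi16 encodes a secreted peptidase inhibitor of adventitial fibroblasts, and its CPM was 15.6, 6.83 and 8.39 in WT and 10.04, 14.1, 15.6 and 14.8 in KO. WT 1 stood with the KO libraries, while WT 2 and WT 3 lay below all of them. Its log2 fold change was 0.40 (SE 0.29, 95% interval -0.25 to 1.05, edgeR adjusted p = 0.456). It was 0.84 without WT 1 (adjusted p = 0.0901), where Pi16 was the 1 marker higher at an unadjusted p below 0.05, and 0.19 without WT 2 (adjusted p = 0.694). Dpp4 encodes a membrane dipeptidase that trims chemokines and hormones, and its CPM was 2.90, 1.61 and 1.69 in WT and 1.47, 1.87, 2.503 and 2.06 in KO. WT 1 was again the high WT library, and the KO libraries fell inside the WT range apart from KO 1. The log2 fold change of Dpp4 was -0.07 (SE 0.28, 95% interval -0.70 to 0.56, edgeR adjusted p = 0.896), and leaving out WT 1 turned it to 0.26 without reaching the threshold.

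Clec3b encodes tetranectin, a secreted C-type lectin that binds plasminogen, at chr9:123150946-123157432 on the plus strand (ENSMUSG00000025784.4). It marks FAPs and other fibroblasts. Its CPM was 21.9, 22.3 and 27.7 in WT and 15.4, 17.0, 16.9 and 16.0 in KO. The 4 KO libraries lay close together, and all lay below the WT libraries. Its mean fell from 24.0 ± 3.27 (SD, n = 3) to 16.3 ± 0.74 CPM (SD, n = 4), or 0.681 times the WT level. On the log2 scale the change was -0.55 (SE 0.12, 95% interval -0.82 to -0.28), with an edgeR adjusted p = 0.0494, just inside the threshold. Without WT 3, its highest library, it was -0.43 (adjusted p = 0.00862), whereas the adjusted p rose to 0.0651 and 0.0817 on leaving out WT 1 or WT 2, and to 0.139, 0.138, 0.144 and 0.155 on leaving out KO 1, KO 2, KO 3 or KO 4. It was 0.0504 with DESeq2's size factors in place of TMM and 0.0672 with no filter on low counts, so the call depended on these choices, whereas its direction did not.

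Cxcl14 encodes a chemokine that marks the other subset. Its CPM was 27.6, 32.6 and 42.6 in WT and 29.5, 33.1, 32.1 and 31.9 in KO. The KO libraries fell within the WT range, and WT 3 was the highest. Its log2 fold change was -0.11 (SE 0.15, 95% interval -0.46 to 0.23, edgeR adjusted p = 0.692) and turned to 0.08 without WT 3 (adjusted p = 0.614). Gsn encodes gelsolin, an actin-severing protein that is abundant in FAPs and made by many other cell types. Its CPM was 489, 487 and 349 in WT and 338, 434, 491 and 426 in KO. WT 3 and KO 1 were low, as for Pdgfra, and the groups overlapped. The log2 fold change of Gsn was -0.06 (SE 0.18, 95% interval -0.48 to 0.35, edgeR adjusted p = 0.855). For 5 of the 7 markers that did not pass, namely Pdgfra, Cd34, Dpp4, Cxcl14 and Gsn, the 95% interval held 0 and lay within a 2-fold change in either direction, while those of Ly6a and Pi16 reached past it.

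**Figure D2:**
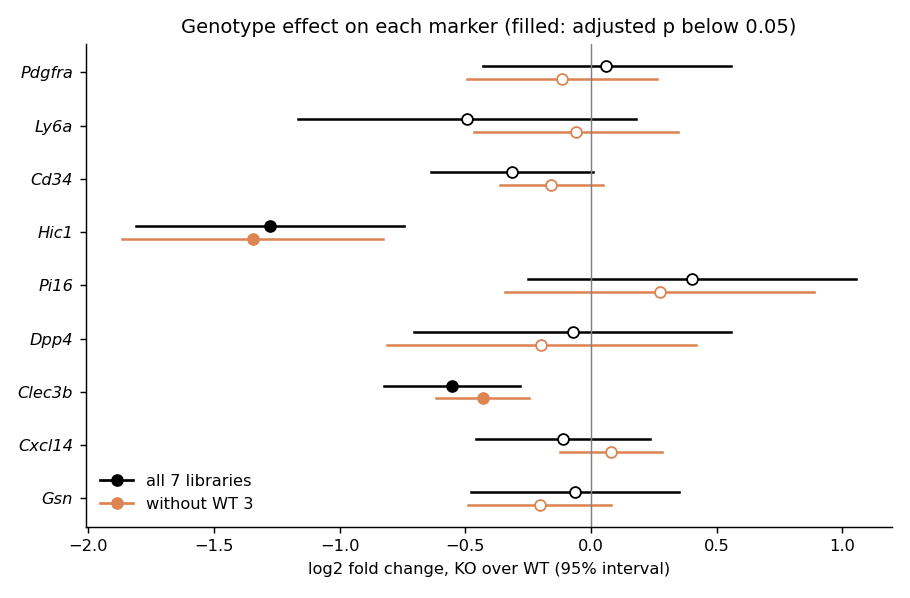
Points give the log2 fold change, KO over WT (x axis), of each marker (y axis) and lines its 95% interval from edgeR, in black for all 7 libraries and in orange without WT 3, with filled points for an adjusted p below 0.05. Hic1 (-1.28) and Clec3b (-0.55) are filled in both fits, and every other interval crosses 0.

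Per kb of exon, the markers spanned a 428-fold range of level. Gsn was highest, at 136 CPM per kb over the 7 libraries (range 107 to 156), and was followed by Ly6a at 47.8 (32.6 to 87.0). Clec3b at 19.8 CPM per kb (15.5 to 27.96) and Cxcl14 at 17.9 (15.1 to 23.3) overlapped, and Clec3b ranked above Cxcl14 in WT and below it in KO. Cd34 stood at 6.45 CPM per kb (5.24 to 8.71). Pi16 at 1.92 (1.07 to 2.46) and Pdgfra at 1.46 CPM per kb (1.04 to 1.76) did not separate. Hic1 at 0.596 (0.286 to 1.06) overlapped Pdgfra above it and Dpp4 below it, the last at 0.319 CPM per kb (0.232 to 0.459). By its mean level per kb, the receptor that defines FAPs ranked 7 of the 9 markers in WT and in KO, not separated from Pi16. Its union of annotated exons, 10.024 kb, was the longest of the 9, and a longer divisor lowers the level.

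**Figure D3:**
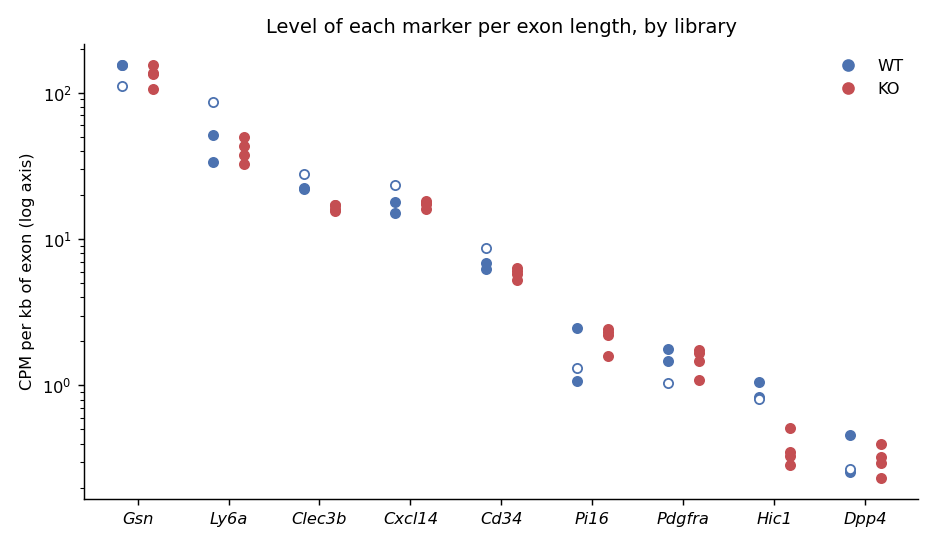
Points give the level of each marker (x axis, in descending order of its mean) in CPM per kb of exon (y axis, logarithmic) in the WT (blue) and KO (red) libraries, with the open circle for WT 3. Gsn lies near 136 and Dpp4 near 0.319 CPM per kb, and the ranges of Clec3b and Cxcl14 overlap.

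How far the markers varied together within the groups depended on WT 3. Across the 7 libraries, after the mean of each group was subtracted from log2 CPM, 4 of the 36 pairs had a Pearson r above 0.8 and 20 of the 36 had r below 0, which became 4 and 12 over the 6 libraries without WT 3. The values describe libraries that share their depth and the odd library WT 3. Pdgfra and Gsn had r = 0.958 (Spearman 0.893), and r = 0.921 without WT 3. Pi16 and Dpp4, the markers of a common subset, had r = 0.953, and 0.954 without WT 3. Both were highest in WT 1, and r without WT 1 was not computed. Clec3b and Cxcl14 had r = 0.934, which became 0.638 without WT 3, and Cd34 and Cxcl14 had r = 0.803, which became 0.239. The negative values between Pdgfra and Cd34 (r = -0.57) and between Pdgfra and Cxcl14 (r = -0.52) rested on WT 3, without which they were -0.007 and 0.254. Without that library Clec3b turned from r = -0.37 to 0.858 with Pdgfra and from -0.41 to 0.868 with Gsn. The genes most like Pdgfra over the 7 libraries by this measure were the unnamed gene model 9930111J21Rik1 (r = 0.995), the sorting nexin Snx8 (r = 0.993), Card6 (r = 0.993), the transforming growth factor beta receptor Tgfbr2 (r = 0.991) and the peptidase-like Prepl (r = 0.990). These genes were picked as the highest r among all genes tested over few libraries, so values this high can come from the choice alone. For them r without WT 3 was not computed. The gene 9930111J21Rik1 also lay near the floor, at 0.0823 CPM in WT 3 and 0.710 in KO 3. As an example, Tgfbr2 stood at 28.7, 23.7 and 17.6 CPM in WT and 20.9, 28.7, 29.3 and 25.6 in KO, low in WT 3 and KO 1 like Pdgfra.

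Balance between the subsets, followed as Pi16 reads per Cxcl14 read, was 0.567, 0.210 and 0.197 in WT and 0.340, 0.426, 0.485 and 0.462 in KO. WT 1 was the highest library and the other 2 WT libraries the lowest, so the groups overlapped. Dpp4 reads per Cxcl14 read were 0.105, 0.0496 and 0.0397 in WT and 0.0497, 0.0565, 0.0780 and 0.0643 in KO, again with WT 1 highest.

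Collagen reads per Pdgfra read separated the groups. Col1a1 encodes a chain of type I collagen, the main fibrillar product of activated FAPs and of tendon cells. There were 6.83, 8.86 and 14.2 Col1a1 reads per Pdgfra read in WT, and 2.15, 1.96, 2.29 and 2.45 in KO. All KO libraries lay below all WT libraries, and WT 3, the highest, had the fewest Pdgfra reads (254) and Col1a1 reads (3598) close to those of the other WT libraries. The mean ratio was 9.95 ± 3.79 in WT (SD, n = 3) and 2.21 ± 0.21 in KO (SD, n = 4), a mean log2 difference of -2.11 (exact two-sided permutation p = 0.0286, the smallest that the 35 arrangements allow). Col1a1 alone fell by 2.01 on the log2 scale (SE 0.18, edgeR adjusted p = 0.00661), which is nearly the whole difference. Col1a1 was chosen with earlier results of these data known, so the permutation p adds no support beyond the call of Col1a1 itself.

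**Figure D4:**
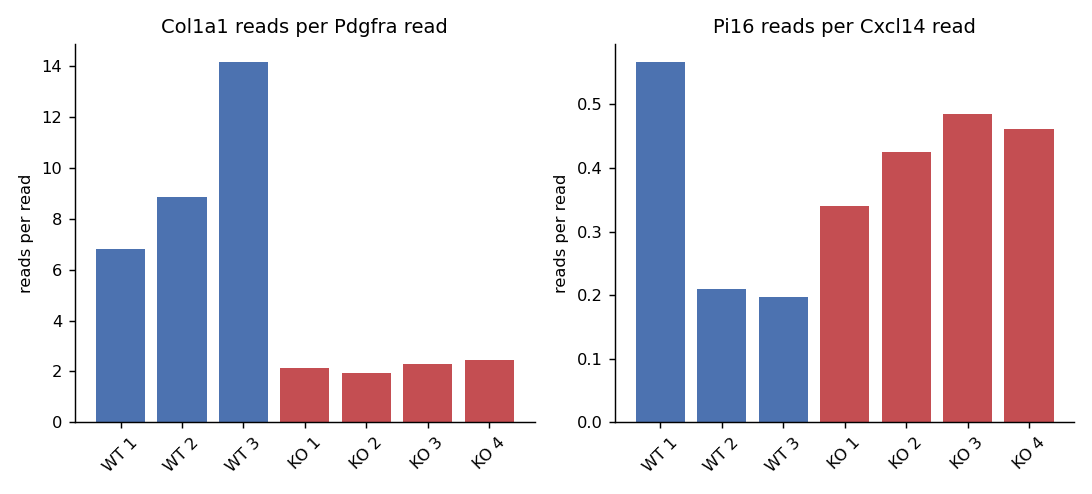
Bars give, for each library (x axis), the Col1a1 reads per Pdgfra read on the left and the Pi16 reads per Cxcl14 read on the right (y axes, starting at 0), with WT in blue and KO in red. The 4 KO bars on the left lie between 1.96 and 2.45, below the lowest WT bar at 6.83, whereas on the right the groups overlap.

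Among other genes shared by FAPs and fibroblasts, 7 of 12 log2 fold changes were below 0, near the share of all genes. Of the 12 genes tested of 13, 0 passed in edgeR, although 3 had an unadjusted p below 0.05 (against 20.2% of all genes). DESeq2 and limma voom each called 3, against 6.52% and 16.8% of all genes. The median log2 fold change was -0.20, and -0.10 without WT 3. The 3 with an unadjusted p below 0.05 in edgeR were Fstl1, a secreted glycoprotein (-0.69, edgeR adjusted p = 0.0528), the elastic fibre gene Mfap4 (-1.41, 0.0650) and the surface antigen gene Thy1 (-0.995, 0.0680). Without WT 3 all 3 were lower past the threshold, where 6.55% of genes were lower, and the value for Thy1 shrank to -0.605. Of 11 further genes of the Dpp4 and Pi16 subset, 1 was higher and 1 lower, against 0.964% and 1.85% of all genes. In this list 6 genes had an unadjusted p below 0.05, against 20.2% of all genes. The groups did not overlap for 4 of the 11, against 22.4%, and 5 of the 11 log2 fold changes were below 0. Their median was 0.02, and -0.06 without WT 3. Without WT 3, 2 genes were higher and 1 lower, against 6.15% and 6.55% of all genes. Anxa3, at 0.43 with all libraries (edgeR adjusted p = 0.316), was then among the higher (0.79, adjusted p = 0.00093). Ackr3, a scavenger receptor for CXCL12, was 16.5, 14.9 and 13.8 CPM in WT and 22.03, 26.9, 25.97 and 23.5 in KO, and it rose by 0.71 on the log2 scale (SE 0.12, edgeR adjusted p = 0.0256). Cd55, a complement regulator, was 86.2, 84.8 and 77.5 CPM in WT and 61.6, 56.5, 58.2 and 60.1 in KO, and fell by 0.49 (SE 0.10, edgeR adjusted p = 0.0451). Neither gene overlapped between the groups, and both calls were lost when single libraries other than WT 3 were left out, for Ackr3 in 5 and for Cd55 in 6 of the 7 cases (highest adjusted p 0.0984 and 0.158 in edgeR). Of 11 further genes of the Cxcl14 subset, 0 passed in edgeR or DESeq2 (3 with an unadjusted p below 0.05, and 3 called by limma voom, near the 20.2% and 16.8% of all genes), with a median of 0.12 that was 0.004 without WT 3. Igfbp5, a binding protein of insulin-like growth factors, stood at 431, 351 and 133 CPM in WT and 483, 705, 578 and 568 in KO, where WT 3 was far below the others (log2 fold change 0.94, edgeR adjusted p = 0.195, and 0.58 with adjusted p = 0.0273 without WT 3). The smallest p of this list belonged to Gdf10, which was lower in KO without overlap (-0.75, edgeR adjusted p = 0.0918, and -0.67 without WT 3). Without WT 3, 1 gene of the list passed higher, Igfbp5, and 1 lower, Lum (-0.44, edgeR adjusted p = 0.0218). Among all genes 6.15% were then higher and 6.55% lower.

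Among the PDGF ligands and the second receptor, 1 gene passed, Pdgfa, a ligand of Pdgfra. Its CPM was 17.6, 18.8 and 25.4 in WT and 13.5, 13.5, 11.0 and 11.4 in KO. Every KO library lay below the WT libraries, and the log2 fold change of Pdgfa was -0.74 (SE 0.16, edgeR adjusted p = 0.0494). This call sat at the threshold: it held without WT 3 (-0.55, adjusted p = 0.00946) and was lost on leaving out any other library (adjusted p from 0.0531 without WT 1 to 0.155 without KO 4). The second receptor, Pdgfrb, which marks pericytes as well as FAPs, had 42.8, 43.4 and 48.6 CPM in WT and 29.2, 24.7, 31.6 and 33.4 in KO, at -0.60 (SE 0.13, edgeR adjusted p = 0.0513). The other ligands did not pass, with log2 fold changes of -0.57 for Pdgfb (-0.26 without WT 3), 0.45 for Pdgfc (0.12 without it) and -0.08 for Pdgfd. Of these 5 genes 1 was lower and 0 higher, against 1.85% and 0.964% of all genes, and 3 had an unadjusted p below 0.05, against 20.2%.

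In the fibrogenic programme the collagen genes Col1a1 and Col3a1 fell. Of 10 tested of 11 genes, 2 fell and 0 rose, against 1.85% and 0.964% of all genes. An unadjusted p below 0.05 was found for 8, against 20.2% of all genes, and 6 did not overlap between the groups, against 22.4%. The median log2 fold change was -1.30, and it was -0.70 without WT 3. Besides Col1a1, Col3a1, a chain of type III collagen, passed at -1.72 (SE 0.21, edgeR adjusted p = 0.0129), with 389, 427 and 498 CPM in WT and 92.7, 126, 172 and 142 in KO. Leaving out each library kept the call of Col1a1, while that of Col3a1 was lost without KO 2 (adjusted p = 0.0564) and without KO 4 (0.0602). Timp1, an inhibitor of matrix proteases, stood at 1.06, 0.751 and 7.53 CPM in WT and 0.113 to 0.299 in KO, so that WT 3 carried much of its log2 fold change of -3.75 (edgeR adjusted p = 0.0650, and -1.99 without WT 3). Several of these genes were listed by the study as changed on these samples, so their direction is not independent evidence. For the adipogenic fate, 0 of 8 tested adipocyte genes of 9 passed in edgeR or DESeq2 (0 with an unadjusted p below 0.05, and 1 in limma voom). Pparg, the master regulator of fat cell differentiation, had 3.14, 2.14 and 6.01 CPM in WT and 6.39, 4.49, 5.04 and 4.52 in KO, where its log2 fold change of 0.45 (edgeR adjusted p = 0.464) became 0.95 without WT 3 (adjusted p = 0.0161), where 6.15% of genes were higher.

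**Figure D5:**
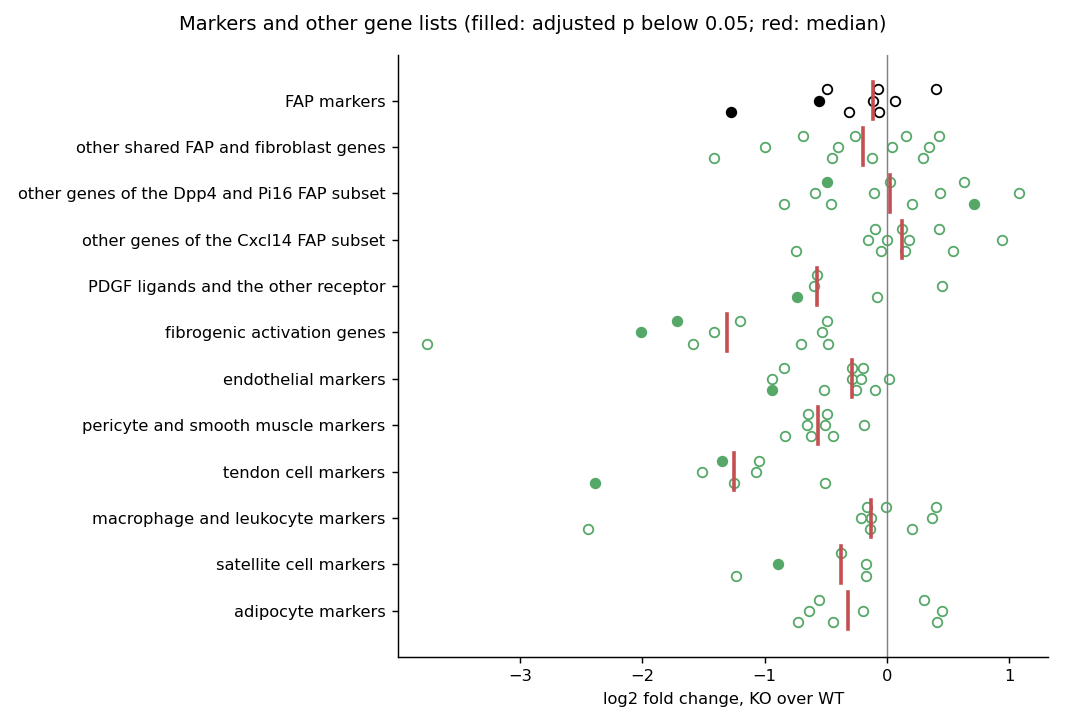
Each circle gives the log2 fold change, KO over WT (x axis), of 1 gene in the named list (y axis), filled where the edgeR adjusted p was below 0.05, in black for the 9 markers and green for other lists, and red bars give list medians. The markers centre at -0.11, the fibrogenic genes at -1.30 (-0.70 without WT 3) and the tendon markers at -1.25 (-1.34 without it).

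Markers of other cell types were read beside these results, since FAP genes are also expressed there. Among all genes tested, 1.85% were lower past the threshold, 20.2% had an unadjusted p below 0.05 and 22.4% did not overlap between the groups. Tendon markers had a summed level of 151 to 216 CPM in WT and 64.7 to 71.6 in KO, and 2 of 7 were lower (Comp, a matrix protein of tendon, at -2.39, edgeR adjusted p = 0.0185, and Thbs4, another, at -1.35, adjusted p = 0.0416). Thbs4 stood at 184 CPM in WT 3, against 83.0 and 81.7 in the other WT libraries, and was -0.85 without it, and both calls were lost on leaving out any KO library, as was that of Comp without WT 2 (adjusted p = 0.0526). All 7 tendon log2 fold changes were below 0, 6 had an unadjusted p below 0.05 and 5 genes did not overlap between the groups. Endothelial markers summed to 472 to 544 CPM in WT and 366 to 427 in KO, and 1 of 11 was lower, the growth factor receptor Kdr (-0.94, edgeR adjusted p = 0.0263, and 0.0591 to 0.0980 on leaving out any library but WT 3). Of the 11 endothelial log2 fold changes, 10 were below 0, 5 had an unadjusted p below 0.05 and 5 genes did not overlap between the groups. Pericyte and smooth muscle markers summed to 396 to 638 CPM in WT and 355 to 419 in KO, with 0 of 8 past the threshold in edgeR (6 with an unadjusted p below 0.05, 2 called by DESeq2 and 3 by limma voom, against 6.52% and 16.8% of all genes). All 8 log2 fold changes were below 0, with a median of -0.57 (-0.51 without WT 3). For 4 of the 8 genes the groups did not overlap. The satellite cell list summed to 26.3 to 28.8 CPM in WT and 19.4 to 25.4 in KO, with 1 of 5 tested lower and 2 of 5 at an unadjusted p below 0.05. The lower gene was Vcam1, an adhesion gene (-0.89, edgeR adjusted p = 0.0257, and 0.0522 to 0.0941 on leaving out any library but WT 3). Pax7, the transcription factor that defines satellite cells, had no overlap between the groups, at -1.23 (adjusted p = 0.0596), and passed without WT 3 (-1.04, adjusted p = 0.0416). Macrophage and leukocyte markers summed to 56.6 to 114 CPM in WT and 50.4 to 86.4 in KO, with 0 of 9 passing in edgeR, DESeq2 or limma voom (1 with an unadjusted p below 0.05). Log2 fold changes were below 0 for 5 of 5 satellite cell genes and 6 of 9 macrophage and leukocyte genes. The groups did not overlap for 2 and 0 of these genes. No gene of these lists was at 0 in every library, and the part of these cells in the lower Hic1 and Clec3b levels was not tested. The 9 FAP markers themselves summed to 611 to 685 CPM in WT and 500 to 684 in KO, a sum that consists mostly of Gsn.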

How the data were processed

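The authors deposited 1 table of raw read counts, whole numbers with no normalization, with Ensembl genes in rows. The processing notes of the submitters name STAR 2.5.2b and HTSeq 0.6.1, beside CASAVA 1.8.2 and Trim Galore 0.4.2, while the methods of the study describe transcript quantification by another tool. For the counting, the strand setting, build and annotation release were not given in the sources used here, so reads shared with gene copies, overlapping or antisense genes are uncertain. The 5 summary rows, which include 24.4% to 34.3% of reads without a unique alignment, were left out. Of 48795 genes, 48435 matched GENCODE M21 (GRCm38) by identifier, which gave positions and exon lengths. Depth was 23839577 to 28168275 gene reads per library. In 21 pairwise comparisons, 0 pairs of libraries were as alike as sampling noise allows.

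Genotype was tested with the quasi-likelihood functions of edgeR 4.0.16 (R 4.3.3) after filterByExpr (minimum count 10) and TMM scaling. P-values were adjusted by Benjamini-Hochberg over the 14002 genes kept, and those below 0.05 were called. CPM uses the TMM library sizes, each SE was obtained from the F statistic, and correlations used log2(CPM + 0.5). DESeq2 1.42.0, limma 3.58.1, other scaling and filters, leaving out each library and a replicate block were alternatives. The steps were checked on simulated counts. Genes named are the 9 markers, up to 3 genes with the smallest p and any past the threshold in each other list, the PDGF genes, Col1a1 and the 5 genes most like Pdgfra, and not every gene so chosen is printed. The markers and lists were chosen with earlier results of these data known. Besides the lists described, Schwann, erythroid and myofibre markers were read: 0 of 5, 0 of 4 and 0 of 6 passed in edgeR and DESeq2, with 0, 0 and 2 at an unadjusted p below 0.05 and 0, 1 and 2 called by limma voom.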

Additional observations from a re-analysis of the deposited data

Results flagged for a closer look

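Among the KO libraries, 1 library stood far from the other 3 for 2 of the named genes. Of 59 groups of 4 libraries examined in this way, chance alone picks out about 1 in 20. Retn, a fat cell hormone, was at 0.188, 0.199, 0.374 and 0.164 CPM in KO 1 to KO 4, and the gap between KO 3 and its neighbour was 0.837 of the whole range, past the 95% critical value for groups of 4. Vcam1 was at 2.14, 1.79, 2.21 and 2.14 CPM, and the gap below KO 2 was 0.841 of the range. No FAP marker had such a library.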

How the results depend on the processing

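The direction of Hic1 and Clec3b held under all 14 alternatives, at log2 fold changes of -1.47 to -1.12 (adjusted p 0.000815 to 0.198) and -0.61 to -0.43 (0.00304 to 0.334). Of the 9 markers, 2 were lower, 1 with DESeq2's size factors, 1 without a filter and 0 to 2 when 1 library was left out, while 0 were higher throughout. The causes of the changes below were not tested. Signs turned for Pdgfra (-0.035 with limma voom, -0.115 without WT 3, -0.024 without KO 3, leave-one-out range -0.115 to 0.244), Cxcl14 (0.069 with limma voom, 0.08 without WT 3, range -0.243 to 0.08), Dpp4 (0.26 without WT 1, 0.046 without KO 1, range -0.214 to 0.26) and Gsn (0.018 without WT 1, 0.023 without WT 2, 0.028 without KO 1, range -0.203 to 0.028), none past the threshold.

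All genes gave 135 higher and 259 lower calls, 407 and 599 with DESeq2 and 1119 and 1228 with limma voom, and 10 to 873 and 10 to 929 when 1 library was left out. DESeq2, which called 6.52% of all genes, called 3 shared FAP, 2 PDGF, 5 fibrogenic, 3 endothelial, 2 pericyte, 5 tendon and 2 satellite cell genes. Limma voom called 16.8% of all genes. Its counts were 3 of 12 shared FAP, 5 of 11 Dpp4 and Pi16 subset and 3 of 11 Cxcl14 subset genes. Further counts were 2 of 5 PDGF, 5 of 10 fibrogenic, 1 of 8 adipocyte, 5 of 11 endothelial and 3 of 8 pericyte genes. Last were 6 of 7 tendon, 2 of 5 satellite cell, 1 of 4 erythroid and 2 of 6 myofibre genes. Without a filter there were 3 shared FAP, 1 Dpp4 and Pi16 subset, 5 fibrogenic and 2 endothelial genes, beside 557 of all 25235. With DESeq2's size factors there was 1 of the Dpp4 and Pi16 subset, beside 395 of all 14002. The stricter filter gave 2 PDGF genes, beside 379 of all 12183. Leaving out 1 library gave 0 to 3 shared FAP, 0 to 3 Dpp4 and Pi16 subset, 0 to 2 Cxcl14 subset, 0 to 2 PDGF, 1 to 5 fibrogenic, 0 to 1 adipocyte, 0 to 5 endothelial, 0 to 3 pericyte, 0 to 5 tendon and 0 to 2 satellite cell genes. The Col1a1 to Pdgfra difference stayed between -2.35 and -1.82.

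Same-numbered libraries deviated from their group means with r of -0.39, 0.35 and -0.18. The largest r, 0.455, was between WT 3 and KO 1. WT 1 and WT 2 had nearly the same r with KO 1 (-0.394 and -0.391), since WT 3 pulled the WT mean. These values therefore could not show whether the numbers pair the libraries. With the replicate number as a block and KO 4 left out, edgeR called 0 genes higher and 0 lower (1552 with an unadjusted p below 0.05), 0 markers (2 unadjusted), and 0 genes of the Dpp4 and Pi16 subset, PDGF, fibrogenic, endothelial, tendon and satellite cell lists. With 27 to 106 reads of Hic1 per library, counting error limits its precision more than that of Gsn.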
